A study of Homo sapiens with 3 samples.

Results

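The genes described here encode the proteins of the mitochondrial ribosome. Members were taken by name alone: every gene symbol made of MRPL or MRPS, a number and at most 1 letter from A to C. This gave 76 of the 23277 symbols, 47 for the large subunit (MRPL) and 29 for the small subunit (MRPS). Values were FPKM (fragment numbers divided by transcript length and by the library's mapped fragments) from RNA sequencing of CaSki cells, an established human line from an epidermoid cervical carcinoma. All 3 groups were CaSki cells carrying a pMSCV retroviral vector and an siRNA, with 1 library each: empty vector with GFP siRNA as the control, FLAG-tagged NANOG with GFP siRNA, and FLAG-tagged NANOG with HDAC1 siRNA. The design text states a search for targets of an axis of NANOG, a transcription factor of pluripotent cells, and HDAC1, a histone deacetylase. The labels do not say whether the cells were a clone or a pool. Each group has 1 library, so the differences below lack a replicate check and carry no test, standard error or p-value. The number of reads behind each value is unknown, so no interval is given either.

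Mitochondria keep a ribosome of their own, which translates the few mRNAs encoded in mitochondrial DNA, all for subunits of the respiratory chain and ATP synthase. Its rRNAs come from mitochondrial DNA, but every one of its proteins is encoded in the nucleus, made in the cytosol and imported. Some of these proteins descend from bacterial ribosomal proteins, and others are found only in mitochondria.

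The control genes and the cell type were read first. NANOG was at 0.0357 FPKM in the empty vector library, 298 FPKM with NANOG and GFP siRNA and 325 FPKM with NANOG and HDAC1 siRNA. HDAC1 was at 19.0, 108 and 12.8 FPKM in that order, so that the library high in HDAC1 was the one with NANOG and GFP siRNA. Of 9 epithelial markers, 8 were at 1 FPKM or more in all 3 libraries. All 6 fibroblast, 4 endothelial and 5 leukocyte markers were under 1 FPKM in all 3. Small RNA symbols held 21.2%, 23.1% and 16% of the FPKM sum.

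The start regions of some members are shown because sequence is a property that the choice by name did not use. RefSeq windows of 250 bases before to 50 after the start (build GRCh38.p14, not the hg19 build of the values) were matched for 67 of the 76 members. MRPL2, MRPL10, MRPL13, MRPL15, MRPL21, MRPL23, MRPL35, MRPS28 and MRPS36 were not matched. Below are 120 bases before to 30 after a start, read 5′ to 3′ on the strand of the gene, with capitals for the letters CCGGAAG, the core bound by ETS factors such as GABPA, and AAGATGGCG, a form of the site bound by YY1, both searched on either strand. MRPS10 (chr6:42217832-42217981, minus strand), MRPS18A (chr6:43687762-43687911, minus strand) and MRPL52 (chr14:22829767-22829916, plus strand) hold both. MRPL20 (chr1:1407264-1407413, minus strand) holds CCGGAAG at 2 places, and MRPS12 (chr19:38930824-38930973, plus strand) lies beside another gene of mitochondrial translation. MRPL12 (chr17:81703247-81703396, plus strand) has neither run of letters and was among the members furthest above the empty vector library.
MRPS10: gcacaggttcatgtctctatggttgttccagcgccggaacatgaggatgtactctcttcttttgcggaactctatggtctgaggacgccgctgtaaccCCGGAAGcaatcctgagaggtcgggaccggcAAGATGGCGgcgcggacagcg
MRPS18A: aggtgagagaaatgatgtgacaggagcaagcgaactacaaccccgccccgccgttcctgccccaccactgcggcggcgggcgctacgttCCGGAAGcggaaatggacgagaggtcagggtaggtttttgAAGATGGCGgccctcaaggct
MRPL52: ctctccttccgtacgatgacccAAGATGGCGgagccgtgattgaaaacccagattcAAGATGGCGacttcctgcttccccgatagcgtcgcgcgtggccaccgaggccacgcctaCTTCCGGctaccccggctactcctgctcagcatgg
MRPL20: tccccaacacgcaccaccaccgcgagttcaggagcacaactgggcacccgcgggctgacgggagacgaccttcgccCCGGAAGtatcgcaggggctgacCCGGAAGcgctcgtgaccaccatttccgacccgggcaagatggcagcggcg
MRPS12: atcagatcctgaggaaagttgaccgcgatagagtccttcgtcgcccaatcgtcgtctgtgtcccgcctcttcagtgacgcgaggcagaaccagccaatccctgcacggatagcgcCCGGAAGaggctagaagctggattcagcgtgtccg
MRPL12: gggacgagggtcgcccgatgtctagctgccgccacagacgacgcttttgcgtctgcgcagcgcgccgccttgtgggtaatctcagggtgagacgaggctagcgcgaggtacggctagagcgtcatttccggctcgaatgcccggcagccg
These 6 were chosen after their values were seen. CCGGAAG or its complement was present in 29 of the 67 members (43.3%), against 12.2% of all 27305 genes in the promoter table and 23.7% of 9126 matched genes among those kept for comparison. AAGATGGCG was present in 13 members (19.4%), against 2.14% and 5.24%. At least 1 of the 2 was found in 38 members (56.7%), against 27.6% of the matched genes kept. Of 14 AAGATGGCG matches, 12 were on the strand of the gene and 10 began at or after the start. The site of NRF1, searched in 1 form on both strands, was present in 8 members (11.9%), against 14.3% of the matched genes kept, and the SP1 box GGGCGG in 41 (61.2%), against 78.6%. The GGGCGG letters can overlap other motifs, and a match of letters is not a bound site.

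The members spanned a wide range of levels, although the proteins are assembled into 1 particle. They are ranked here by their mean over the 3 libraries. MRPS24, the mitochondrial relative of bacterial S3, had the highest mean, with 274 FPKM under empty vector, 249.5 under NANOG with GFP siRNA and 256 under NANOG with HDAC1 siRNA. Its empty vector value was the highest of the 3. In the large subunit MRPL51 (138, 147 and 149 FPKM in the same order), MRPL21 (117, 145 and 149.6 FPKM) and MRPL14 (121, 94.0 and 116 FPKM) led. MRPS15 (107, 108 and 109 FPKM) and MRPS34 (89.9, 107 and 108 FPKM) followed MRPS24 in the small subunit. At the low end stood MRPL19 (5.68, 7.34 and 5.68 FPKM), MRPL22 at the exit of the peptide tunnel (7.05, 9.18 and 8.79 FPKM) and MRPL42 (10.1, 9.71 and 9.99 FPKM). MRPS25 (6.25, 6.09 and 6.56 FPKM) and MRPS31 (7.76, 10.1 and 11.4 FPKM) were the lowest small subunit genes above 0. The median member of the large subunit was at 38.9, 46.1 and 44.1 FPKM. That of the small subunit was at 33.3, 37.5 and 39.3 FPKM over all 29 symbols, with MRPS18B, listed at 0, included. Cytoplasmic ribosomal proteins had medians of 850.2, 883 and 832 FPKM over 85 genes, which places the mitochondrial set far below them. Of these 85, 79 averaged 1 FPKM or more. The plot of levels gives the 3 values of each gene.

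**Figure D1:**
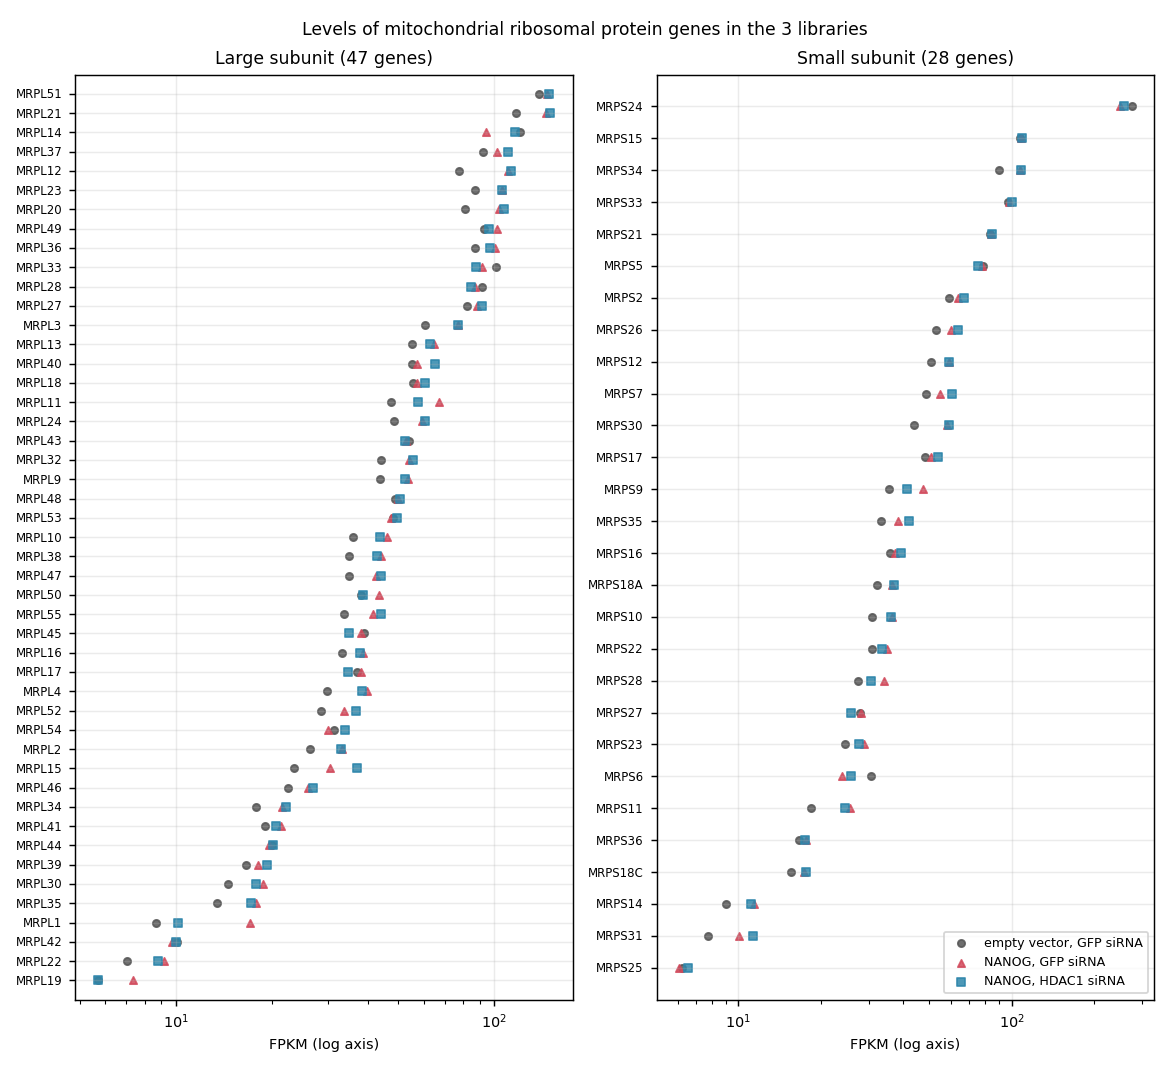
FPKM of each mitochondrial ribosomal protein gene (log axis) in the empty vector (circles), NANOG GFP siRNA (triangles) and NANOG HDAC1 siRNA (squares) libraries, 1 library each, sorted by mean. In 60 of the 75 genes shown the circle is the lowest of the 3; MRPS18B, listed at 0 in all 3, is left out.

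MRPS18B was the 1 member listed at 0 in every library. It is 1 of 3 genes related to bacterial S18. Its relatives were measured: MRPS18A at 32.2, 36.5 and 37.1 FPKM and MRPS18C at 15.6, 17.3 and 17.65 FPKM. Of the 20 protein-coding neighbours of MRPS18B found in the files, 10 on each side by RefSeq order, 18 were also listed at 0 in all 3 libraries. Over the 16985 protein-coding symbols matched, 17.1% were listed at 0 in all 3. These neighbours included HLA-E, TUBB, which encodes a tubulin, and FLOT1, while IER3 was at 8.40, 7.90 and 9.19 FPKM; these were named after their values were seen. The value 0 therefore gives no level for MRPS18B, and 75 members remained for comparison.

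The first comparison, NANOG against empty vector with GFP siRNA in both, found most members higher with NANOG by a small amount. Differences are on the log2(FPKM + 1) scale, for the 11409 genes whose 3 values averaged 1 FPKM or more, and the scale understates changes of low genes. In bulk RNA, a change in the mix of cells and a change of RNA per cell cannot be told apart. In the large subunit 38 of 47 genes were higher and 9 lower, with a median difference of 0.22. In the small subunit 24 of 28 were higher and 4 lower, with a median of 0.17. Over all 11409 genes, 49.2% were higher and the median was -0.01. A difference of 0.322 or more, called large here, was reached upward by 17 members, 13 large and 4 small, or 22.7% of 75, against 13.1% of all genes. In the small subunit alone, 4 of 28 (14.3%) was close to that share. With every library brought to the same total (TPM), 8 members reached it upward, against 10.6% of all genes, so the share of large differences upward was then no higher than over all genes, while 56 of 75 members were higher, against 43.9% of all genes. Downward it was reached by 2 members, against 15.4% of all genes. No member differed by 2-fold, against 0.675% of all genes upward and 1.22% downward.

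The stalk that recruits the translation factors held some of the largest differences. MRPL12, the relative of bacterial L7/L12 and the tip of that stalk, measured 77.4 FPKM under empty vector, 111 under NANOG with GFP siRNA and 113 under NANOG with HDAC1 siRNA. Both NANOG libraries were high, by 0.51 and 0.54 over empty vector. MRPL11, at the base of the stalk, was at 47.5, 67.3 and 57.8 FPKM, with differences of 0.49 and 0.28, so that the NANOG GFP siRNA library was the highest. MRPL10, which anchors MRPL12, was at 36.1, 46.1 and 43.8 FPKM (0.35 and 0.28). The other genes counted with this region, MRPL53 (48.1, 47.5 and 49.6 FPKM) and MRPL54 (31.5, 29.95 and 34.01 FPKM), were slightly lower with NANOG and GFP siRNA. MRPL53 and MRPL54 have no bacterial relative. With NANOG and GFP siRNA, the 3 with bacterial relatives had large differences upward and the other 2 did not. That is 60% of the 5 genes, against 13.1% of all genes. With NANOG and HDAC1 siRNA against empty vector, only MRPL12 had a large difference (20% of the 5, against 8% of all genes). The split by bacterial relatives within the stalk thus held in the first of these comparisons alone, and it was not tested.

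The member with the widest range was MRPL1, which forms the mobile arm beside the tRNA exit site. Its 3 values were 8.70 FPKM (empty vector), 17.1 FPKM (NANOG, GFP siRNA) and 10.2 FPKM (NANOG, HDAC1 siRNA). Only the middle one was high. The difference was 0.90 with NANOG and -0.70 with HDAC1 siRNA, against 0.20 when the NANOG HDAC1 siRNA library was set against empty vector. HDAC1 itself was also high under NANOG with GFP siRNA alone. That library held the highest value for 33.1% of all genes, and a link between HDAC1 and MRPL1 was not tested. MRPL4, whose bacterial relative lines the peptide tunnel, was at 29.8, 39.7 and 38.4 FPKM (0.41 with NANOG) and was higher in both NANOG libraries.

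On the low side stood MRPL14, a protein of the face that meets the small subunit, at 121, 94.0 and 116 FPKM. It was low in the NANOG GFP siRNA library alone, with differences of -0.36 with NANOG and 0.30 with HDAC1 siRNA. MRPL33 (101, 91.3 and 87.9 FPKM) and MRPL28 (91.3, 87.0 and 84.7 FPKM) were lower in both NANOG libraries, by -0.15 and -0.07 with NANOG and GFP siRNA. In the small subunit MRPS6, a protein of the platform, was at 30.6, 23.97 and 25.9 FPKM. It differed by -0.34 with NANOG and, with MRPL14, was the other member with a large difference downward. MRPS24 (-0.14), MRPS25 (-0.03) and MRPS5 (78.6, 77.7 and 75.5 FPKM, -0.02) were the next lowest.

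The small subunit genes furthest above empty vector had varied places. MRPS11, of the platform, was at 18.5, 25.7 and 24.6 FPKM (0.45 with NANOG). MRPS9, of the head of the subunit, was at 35.4, 47.2 and 41.2 FPKM (0.40), and MRPS31 differed by 0.34. MRPS30 was at 43.8, 57.9 and 59.0 FPKM (0.39); despite its symbol, the protein sits in the large subunit. All 4 were higher in both NANOG libraries. They were picked by the difference with NANOG and GFP siRNA, and both differences use the same empty vector library. That library was the lowest for 60 of 75 members (80%), against 38.7% of all genes. MRPS12, which takes part in decoding, was at 50.8, 59.1 and 59.0 FPKM (0.21). MRPS36, since assigned to the 2-oxoglutarate dehydrogenase complex rather than the ribosome, was at 16.7, 17.7 and 17.6 FPKM (0.08).

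**Figure D2:**
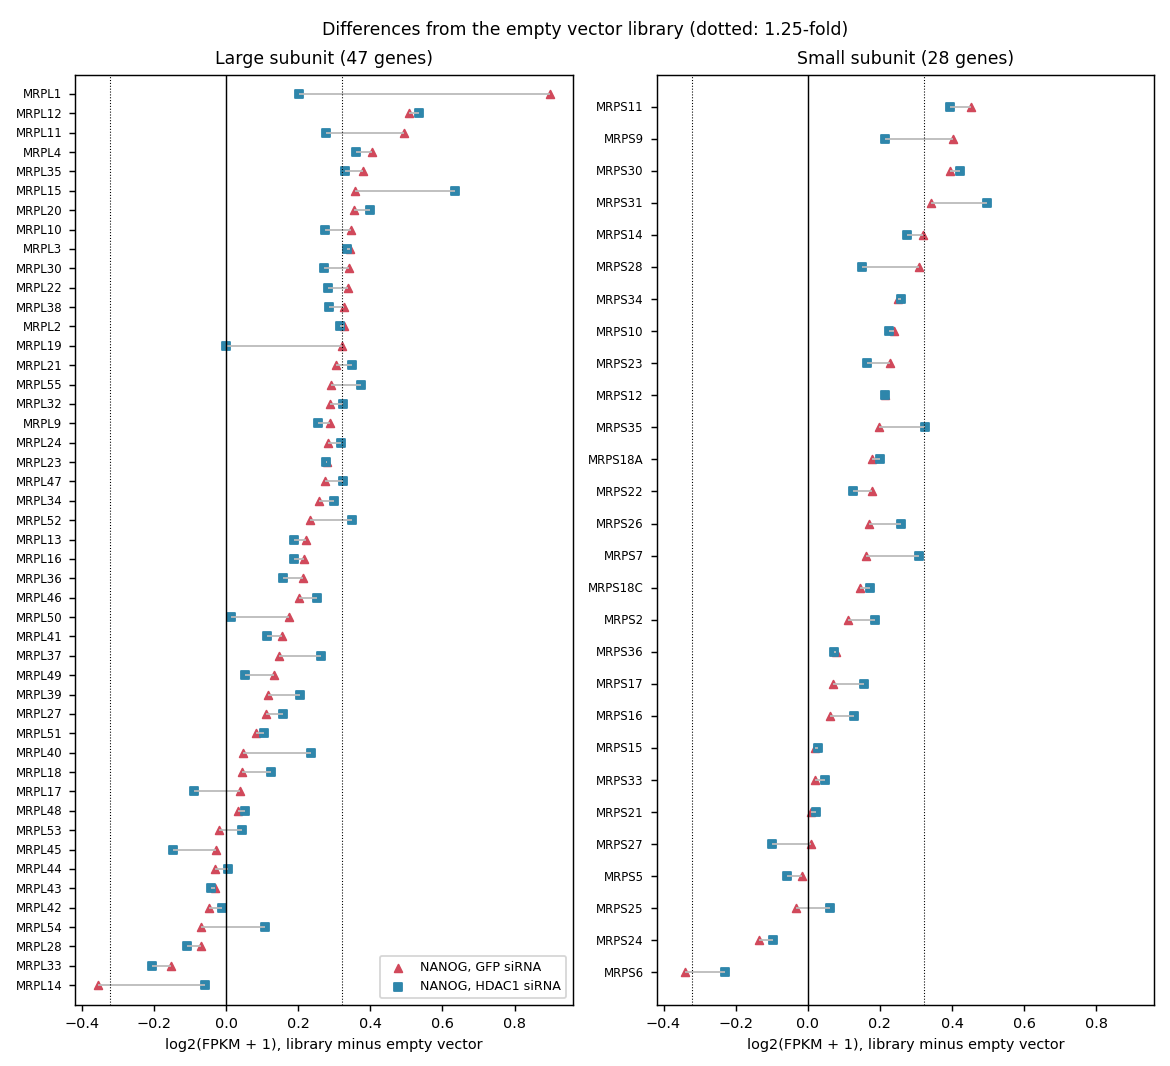
Difference of each member from the empty vector library on the log2(FPKM + 1) scale, for NANOG with GFP siRNA (triangles) and NANOG with HDAC1 siRNA (squares), 1 library each; both use the same empty vector library, and grey lines join the values of a gene and dotted lines mark 0.322. Most points lie to the right of 0, with MRPL1 at 0.90 and MRPL14 at -0.36 as the ends with GFP siRNA.

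Within the large subunit, genes with a bacterial relative lay further above empty vector than those found only in mitochondria. The 30 with a bacterial relative had a median difference of 0.29 with NANOG, with 27 higher (90%, against 49.2% of all genes) and 12 of them by a large difference (40%, against 13.1%). The 17 mitochondria-specific genes had a median of 0.08, with 11 higher and 1, MRPL38 (34.9, 44.1 and 42.8 FPKM), by a large difference (5.88%). In the small subunit the medians were 0.15 over 17 genes with a bacterial relative and 0.18 over 11 mitochondria-specific ones, with 2 large differences upward in each class (11.8% and 18.2%), so this split did not recur there. Subunits go by symbol here, so the 11 include MRPS30, which had 1 of the large differences, and MRPS36. The alternative of members by place, which moved MRPS30 and MRPS18A to the large subunit, was not run on this split. By place, the 7 genes of the central protuberance were all higher with NANOG (median 0.11). Of 7 genes around the tunnel exit, 5 were higher (median 0.12). The gap between classes was not tested.

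Transcript length moved with these differences over all genes. Spearman's rho between the NANOG difference and the longest GENCODE transcript was -0.20 over 11075 genes, which share the same 2 libraries and their RNA. Members were short, with a median longest transcript of 1727 bases against 3623 bases over all genes with a length. Once the median of 20 bins of transcript length had been subtracted, 55 of 75 members were still above 0 with NANOG, and the medians were 0.17 in the large and 0.09 in the small subunit. Large differences upward then numbered 9 in place of 17, against 12.9% of all genes, so that the count no longer stood above this background (12% of 75) while the direction did. Among the members alone, rho between length and difference was -0.03.

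Other parts of mitochondrial gene expression were read from lists for comparison. Over all genes kept, 49.2% were higher with NANOG and the median was -0.01. The corrections by length and by scale were not applied to these lists. Nuclear-encoded respiratory chain subunits lay close to the mitochondrial ribosome, with 70 of 77 higher with NANOG and a median of 0.22. Cytoplasmic ribosomal proteins did not: 27 of 79 were higher, with a median of -0.06. Of 7 mitoribosomal proteins whose symbols do not start with MRPL or MRPS, 6 were higher with NANOG (median 0.12), among them AURKAIP1 (108, 122 and 121 FPKM) and ICT1, a peptide release protein built into the large subunit (27.7, 32.9 and 34.1 FPKM). PTCD3 was at 10.2, 9.80 and 9.67 FPKM. Assembly and rRNA modification factors were higher in 20 of 23 cases (median 0.16). The mitochondrial tRNA synthetase and amidotransferase list had 15 of 19 higher (median 0.17), with the methionyl enzyme MARS2 at 4.21, 6.05 and 5.95 FPKM. Translation factors and mRNA handling proteins had 11 of 16 higher (median 0.11). MTFMT, which formylates the initiator tRNA, was at 2.29, 4.34 and 3.89 FPKM, and the initiation factor MTIF3 at 15.3, 11.1 and 13.7 FPKM.

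Several genes of these lists were, like MRPL1 and 33.1% of all genes, highest under NANOG with GFP siRNA. TFAM, which packs mitochondrial DNA and starts its transcription, measured 26.8, 46.1 and 27.2 FPKM. MTERFD2, which brings the methyltransferase NSUN4 to the large subunit, was at 6.19, 11.7 and 6.78 FPKM. TACO1, an activator of COX1 translation, was at 11.9, 20.3 and 13.3 FPKM, and the helicase gene C10orf2 at 10.4, 14.6 and 11.6 FPKM. The list of mitochondrial DNA transcription, maintenance and nuclear regulators lay nearer to all genes by its median of 0.04 with NANOG. Of its genes, 12 of 17 were higher, against 49.2% of all genes. In it, POLG, the mitochondrial DNA polymerase, was at 16.99, 12.8 and 14.3 FPKM. Of the factors whose sites were searched, named after their values were seen, GABPA was at 6.13, 5.59 and 5.98 FPKM, YY1 at 68.3, 62.2 and 69.5 FPKM and NRF1 at 6.11, 6.30 and 5.57 FPKM. GABPA and YY1 thus had their lowest value under NANOG with GFP siRNA, and NRF1 under HDAC1 siRNA.

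**Figure D3:**
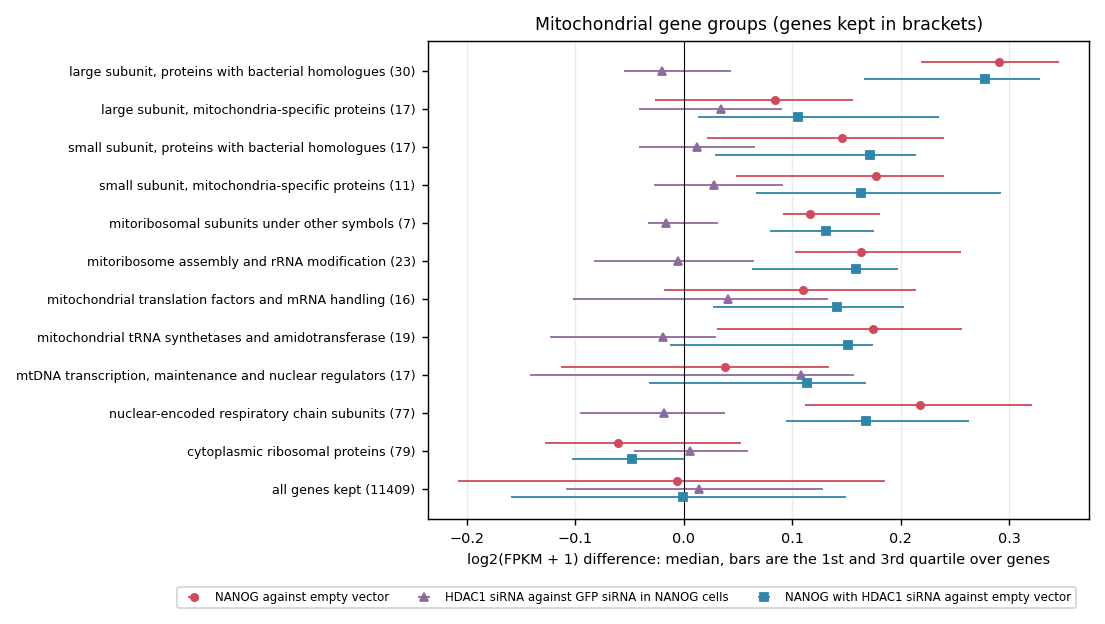
Median difference (points) with the quartiles over genes (bars) for groups of mitochondrial genes, cytoplasmic ribosomal proteins and all genes kept, on the log2(FPKM + 1) scale, in the 3 comparisons; bars are the spread between genes, not an error. Large subunit genes with a bacterial relative lie at 0.29 and 0.28 against empty vector, while cytoplasmic ribosomal proteins lie at -0.06 and -0.05.

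The second comparison, HDAC1 siRNA against GFP siRNA in NANOG cells, found the members near their NANOG level as a group. In the large subunit 23 of 47 genes were higher and 24 lower (median 0.00), and in the small subunit 17 of 28 were higher and 11 lower (median 0.02). Over all genes 53.4% were higher and the median was 0.01. No member had a large difference upward, against 4.95% of all genes, and 1, MRPL1, had one downward, against 6.34%. MRPL19 (-0.32) was just short of that size. This comparison depends on scale: with every library brought to the same total (TPM), 71 of 75 members lay above 0, as did 81.3% of all genes, whose median became 0.18 beside 0.18 and 0.20 for the subunits. With the median of 20 bins of mean level subtracted, 31 members were above 0 and 44 below.

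Single members differed more than the group did. Besides MRPL1 and MRPL19, the lowest were MRPL11 (-0.22) and MRPL50 (38.3, 43.3 and 38.6 FPKM, -0.16) in the large subunit, and MRPS9 (-0.19), MRPS28 (27.4, 34.1 and 30.5 FPKM, -0.16), MRPS27 (27.9, 28.0 and 25.9 FPKM, -0.11) and MRPS23 (24.5, 28.9 and 27.5 FPKM, -0.07) in the small subunit. On the higher side were MRPL14 (0.30), MRPL15, which was at 23.6, 30.5 and 37.2 FPKM (0.28), MRPL40 of the central protuberance (55.3, 57.2 and 65.3 FPKM, 0.19) and MRPL54 (0.18). In the small subunit they were MRPS31 (0.16), the head protein MRPS7 (48.5, 54.4 and 60.3 FPKM, 0.15), MRPS35 (33.3, 38.3 and 41.9 FPKM, 0.13) and MRPS6 (0.11). The genes on the higher side were picked by this difference, so the choice itself placed them above the NANOG GFP siRNA library. MRPL15, MRPL40, MRPS31, MRPS7 and MRPS35 had their highest value with HDAC1 siRNA and their lowest in empty vector cells. MRPL14, MRPL54 and MRPS6 were instead lowest under NANOG with GFP siRNA. Over all genes, 27.1% were highest with HDAC1 siRNA and 38.7% lowest in empty vector cells. Among the related lists, the regulator list held the GABPA partner GABPB1 at 20.4, 20.5 and 27.7 FPKM and MYC at 94.5, 81.8 and 109 FPKM.

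The third comparison, NANOG with HDAC1 siRNA against empty vector, shares the empty vector library with the first. Most members were again higher: 40 of 47 in the large subunit (median 0.24) and 24 of 28 in the small subunit (median 0.17), against 49.8% of all genes and a median of 0.00; 11 members were lower, against 50.2%. Under TPM 72 were higher and 3 lower, against 69.9% of all genes higher. Large differences upward numbered 15 (20% of 75), 11 in the large and 4 in the small subunit, against 8% of all genes, and downward 0, against 11%. The highest large subunit genes were MRPL15 (0.63), MRPL12 (0.54), MRPL20 (80.8, 104 and 107 FPKM, 0.40) and MRPL55, the relative of bacterial L31 (33.8, 41.6 and 44.1 FPKM, 0.38). MRPS31 (0.50), MRPS30 (0.42), MRPS11 (0.39) and MRPS35 (0.33) led the small subunit. The lowest were MRPL33 (-0.20), the tunnel exit protein MRPL45 (38.9, 38.2 and 35.1 FPKM, -0.15), MRPL28 (-0.11) and MRPL17 (37.0, 38.1 and 34.7 FPKM, -0.09), with MRPS6 (-0.23), MRPS24 (-0.10), MRPS27 (-0.10) and MRPS5 (-0.06). The rRNA methyltransferase gene MRM1, of the assembly list, was at 5.27, 6.60 and 8.14 FPKM. With length bins removed, 59 of 75 members stayed above 0 and 6 had a large difference upward, against 7.19% of all genes.

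Across the 3 libraries, the empty vector library was the lowest for 60 of 75 members (80%), against 38.7% of all genes, and the highest for 9 members (12%), against 39.7%. The highest value fell in the NANOG GFP siRNA library for 30 members (40%, against 33.1% of all genes) and in the NANOG HDAC1 siRNA library for 36 (48%, against 27.1%). Between these 2 libraries alone, 40 of 75 members were higher with HDAC1 siRNA (53.3%, against 53.4% of all genes). Under TPM 71 of 75 were, against 81.3% of all genes, so this order depends on scale. Summed over the members, FPKM came to 2312, 2604 and 2632 in the large subunit and to 1415, 1504 and 1524 in the small subunit. The cumulative plot shows both subunits to the right of all genes in the first and the last comparison and close to them in the second.

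**Figure D4:**
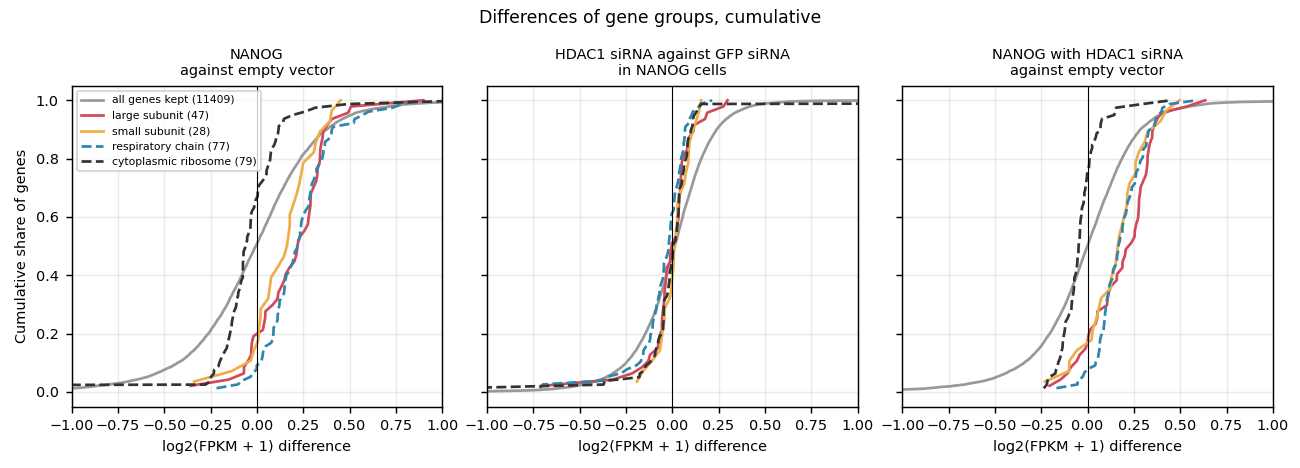
Cumulative share of genes by their log2(FPKM + 1) difference in each comparison, for all genes kept, both subunits, respiratory chain subunits and cytoplasmic ribosomal proteins (number of genes in brackets); values beyond 1 in size fall outside the axis. The subunit curves are shifted right in the outer panels, with medians of 0.22 and 0.24 (large) and 0.17 and 0.17 (small).

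The members' NANOG differences were set beside the motifs, with no test. The 29 kept members with CCGGAAG had a median of 0.17 with 24 higher, and the 37 without it a median of 0.18 with 29 higher. For AAGATGGCG the medians were 0.22 over 12 members with it and 0.15 over 54 without it. For the SP1 box they were 0.13 over 41 members with it and 0.23 over 25 without it. The NRF1 site gave 0.13 and 0.17. Over the matched genes kept, the medians with and without the letters were 0.024 and -0.012 for CCGGAAG. They were 0.032 and -0.003 for AAGATGGCG, -0.016 and 0.046 for the SP1 box, and 0.013 and -0.003 for the NRF1 site. MRPS10 (30.8, 36.5 and 36.2 FPKM), MRPS18A and MRPL52 (28.7, 33.8 and 36.8 FPKM), whose sequences hold both, were lowest in empty vector cells. So was MRPL12, whose sequence holds neither. These genes were chosen after their values were seen. The same order held for 60 of 75 members (80%), against 38.7% of all genes, so it does not set these genes apart.

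Some members share their start region with a gene that is read the opposite way. The share of all genes with such a partner was not worked out. By RefSeq starts at most 500 bases apart, 21 such pairs included a member, and in 14 of them both genes were kept for comparison. In 11 of these 14 (78.6%) the genes differed in the same direction with NANOG, against 56.4% of 652 such pairs over all genes. With HDAC1 siRNA against GFP siRNA it was 8 of 14 (57.1%, against 52%), and with NANOG and HDAC1 siRNA against empty vector 11 (against 59%). Of 75 members, 62 were higher with NANOG, and the pairs over all genes do not allow for this. An effect of the shared start was not tested. One pair joins both subunits: MRPS11 and MRPL46 start 320 bases apart, and MRPL46 was at 22.5, 26.1 and 27.1 FPKM (0.20 with NANOG beside 0.45 for MRPS11). MRPS12 starts 181 bases from SARS2, the mitochondrial seryl-tRNA synthetase gene, which was at 12.8, 14.6 and 14.7 FPKM (0.18 beside 0.21). MRPL14, the large subunit gene lowest with NANOG, pairs with TMEM63B at 23.5, 17.8 and 18.9 FPKM (-0.38 beside -0.36). Both were below their empty vector level under NANOG with GFP siRNA, but with HDAC1 siRNA MRPL14 stood at -0.06 and TMEM63B at -0.30. MRPL32 (44.1, 54.1 and 55.4 FPKM) pairs with the proteasome gene PSMA2 (125, 142 and 135 FPKM), and MRPL18 (55.5, 57.3 and 60.6 FPKM) with the chaperonin gene TCP1 (109, 114 and 121 FPKM). MRPL49 (92.9, 102 and 96.4 FPKM) starts 49 bases from FAU, which encodes a cytoplasmic ribosomal protein (752, 903 and 831 FPKM). Opposite directions were found for MRPL30 (14.6, 18.8 and 17.9 FPKM) with MITD1 (41.1, 38.3 and 40.1 FPKM), MRPL27 with EME1 and MRPS7 with GGA3. These pairs were named after their values were seen. The way strand was handled in counting is not given in the sources used here, so reads near shared starts may have been counted for either gene.

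**Figure D5:**
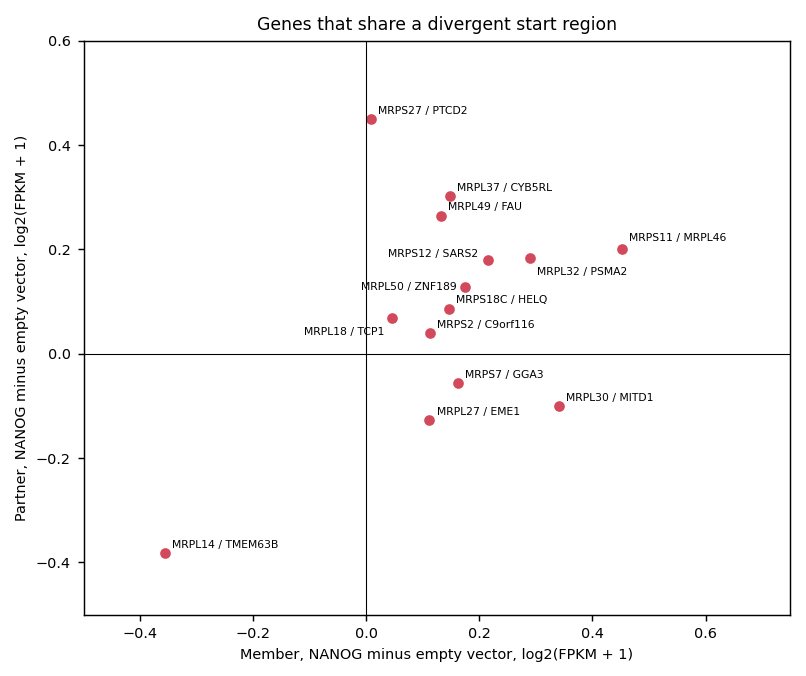
NANOG minus empty vector difference on the log2(FPKM + 1) scale for 14 members (horizontal axis) and the gene that starts at most 500 bases away on the other strand (vertical axis), 1 point per pair. In 11 pairs both genes lie on the same side of 0, with MRPL14 and TMEM63B at -0.36 and -0.38.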

How the data were processed

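Total RNA of 3 CaSki cultures was sequenced, 1 library per group; groups were taken from the sample titles. RNA was isolated with Trizol, and the TruSeq stranded kit for total RNA was used for libraries, per the labels. The authors deposited FPKM values, 1 per symbol and library; the submitters' processing notes name TopHat2, Cufflinks and hg19 without their roles; versions, annotation and strand handling: not given in the sources used here. FPKM divides by mapped fragments, so a few abundant RNAs lower all other values of a library, and depth is unknown.

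A pseudocount of 1 FPKM was added before log2 values were subtracted, for the 11409 genes that averaged 1 FPKM or more, without 1624 small RNA symbols. Differences of at least 0.322 were counted as large, with no test. Named genes were, per comparison and subunit, the 4 highest and 4 lowest members, the 3 most and least abundant, the 8 of widest range, those listed at 0, MRPS18A to MRPS18C, MRPS30, MRPS36, and the 2 highest and lowest of each related list; not every gene the rule takes is printed. Members named for their place, a motif or a shared start lie outside the rule and were named after their values were seen. Members and lists were chosen with earlier results of these data known. Transcript lengths came from GENCODE release 29, and start windows from RefSeq; older symbols were matched through the reference tables. Alternatives were pseudocounts, filters, 4 scalings, correction by length or level, members by place, the mean, and other folds. The steps were tested on simulated data. Python 3.11.15, numpy 2.4.6, pandas 2.3.3 and matplotlib 3.10.9 were used.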

Additional observations from a re-analysis of the deposited data

How the results depend on the processing

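With 120 recomputed values, 98 stayed near the reported value (medians within 0.1, counts within 1.5 times), 22 moved and 0 reversed. A reversal was counted only for reported medians of at least 0.1 in size. The medians with HDAC1 siRNA against GFP siRNA were smaller, so a change of sign there did not count. In the small subunit that median went from 0.017 to -0.015 with level bins removed. In the large subunit it went from -0.001 to 0.054 under TPM without small RNAs. With NANOG against empty vector the median ranged over 13 alternatives from 0.17 to 0.25 in the large and from 0.09 to 0.20 in the small subunit, so every alternative run left both above 0. TPM over all symbols moved the medians with HDAC1 siRNA against GFP siRNA to 0.18 (large) and 0.20 (small), and those of NANOG with HDAC1 siRNA against empty vector to 0.37 and 0.30; it moved the median of all genes to 0.18 and 0.12. Members with a large difference (0.322 or more in size) with NANOG (19) became 10 under TPM and 10 with length bins removed. At 1.5-fold 1 remained upward, against 3.49% of all genes, and 0 downward, against 5.27%. At 2-fold 0 remained, against 0.675% of all genes upward and 1.22% downward. Under TPM 8 were upward, against 10.6% of all genes, and 2 downward, against 18.4%. With length bins removed 9 were upward, against 12.9% of all genes, and 1 downward, against 14.6%. With HDAC1 siRNA against GFP siRNA (1 member) they became 2 with pseudocounts of 0.1 and 0.5 FPKM, 2 at the same upper quartile, 2 at a median log2 ratio of 0, 2 with level bins removed, 7 under TPM, 3 under TPM without small RNAs, and 0 at 2-fold. Of the 7 under TPM, 6 were upward, against 19.7% of all genes, and 1 downward, against 2.56%. Under TPM without small RNAs 2 were upward, against 8.03%, and 1 downward, against 5.0%. Where the count was 2, both were downward, against 6.7% to 8.56% of all genes, and 0 upward, against 4.5% to 7.1%. At 2-fold the shares of all genes were 0.0877% upward and 0.21% downward. With NANOG and HDAC1 siRNA against empty vector (15), members with a large difference became 39 under TPM, against 18.3% of all genes upward. They became 24 under TPM without small RNAs, against 11% of all genes upward, and 6 with length bins removed, against 7.19%. At 1.5-fold there was 1, against 1.78% of all genes upward, and at 2-fold 0, against 0.368%. All of these were upward. Under TPM over all symbols members higher and lower numbered 56 and 19 with NANOG and 71 and 4 with HDAC1 siRNA. For NANOG with HDAC1 siRNA against empty vector they numbered 72 and 3. Of all genes, 43.9%, 81.3% and 69.9% were higher in that order. Leaving out MRPL1, MRPL14 and MRPS6, an alternative chosen after seeing the data, gave 16 large differences with NANOG and 0 with HDAC1 siRNA. All 16 were upward, against 13.1% of all genes. With HDAC1 siRNA the shares of all genes were 4.95% upward and 6.34% downward. Rescaling changes every gene of a library alike; the cause of the other shifts was not tested. No paired analysis was possible because each group has 1 library. Depth is unknown, and with 1 library per group the spread between cultures has no value here.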
